A study of Mus musculus with 12 samples.

Results

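The 10 genes described here act in the endothelium of the kidney and in signalling by vascular endothelial growth factor (VEGF): the ligand Vegfa, the receptors Kdr, Flt1 and Tek, the endothelial genes Pecam1, Cdh5, Emcn, Plvap and Ehd3, and the nitric oxide synthase Nos3. They were taken by gene symbol from a table of 57490 genes, and each of the 10 symbols was found. The 3 groups held 4 male mice each, and 1 library of kidney RNA was sequenced per mouse. Ctrl mice were non-diabetic heterozygotes (db/+, named db/m and wild-type in the labels), Model mice were db/db mice of the line BKS.Cg-Dock7m +/+ Leprdb/JNju, and YHY mice were db/db mice of the same line given Yiqi Huoxue Yangyin Decoction (YHY), a herbal extract. Mice were obtained at 8 weeks of age; the db/db mice kept for the study had a random blood glucose of at least 16.7 mmol/L, and the heterozygotes kept had less than 11.1 mmol/L. For 4 weeks, the YHY mice received the water extract at 6.24 g/mL by daily gavage (50 µL for every 10 g a mouse weighed), while Ctrl and Model mice received purified water, and all were 13 weeks old at collection. The tissue is labelled as whole kidney in the sample labels but as renal cortex in the summary of the deposited data. Loss of the leptin receptor drives obesity and diabetes in db/db mice, so all Model and YHY mice share this genetic cause of diabetes.

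VEGF-A is made in the kidney mainly by podocytes and tubular cells and acts on the endothelium next to them, where KDR is its main signalling receptor and FLT1 binds it tightly but signals weakly, with a soluble form of FLT1 serving as a decoy. TEK, also called TIE2, is the receptor of the angiopoietins, which keep vessels quiescent or loosen them, and Nos3 makes the nitric oxide with which endothelium relaxes vessels. The fenestrated endothelium of the glomerulus depends on VEGF-A from podocytes, and altered VEGF signalling and endothelial injury are long-known features of diabetic kidney disease.

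Between 24415658 (Model 4) and 33276634 (Ctrl 1) reads were counted on genes in each library. Transcripts of the mitochondrial genome took 19.5% ± 2.12 of the counts of Ctrl mice, 52.2% ± 7.68 of those of Model mice and 56.8% ± 5.21 of those of YHY mice (SD, n = 4 each), and the part of this difference in the results was not tested. Levels are given as CPM, the counts relative to library size after TMM scaling, which brings libraries to a common scale through the bulk of the genes. Each of the 10 genes had enough counts for testing, as had 17431 of the 57490 genes. The groups were compared with the quasi-likelihood F test of edgeR, p-values were adjusted over those 17431 genes by Benjamini-Hochberg, and a gene was called at an adjusted p under 0.05. Markers of kidney cells were present: the proximal tubule gene Slc27a2 averaged 2457 CPM, the podocyte gene Clic5 54.5 CPM and the endothelial gene Eng 186 CPM over the 12 mice. Lepr, the gene mutated in db/db mice, averaged 9.29 ± 3.05, 6.37 ± 2.48 and 9.99 ± 5.40 CPM in the order Ctrl, Model, YHY (SD, n = 4). The db mutation alters splicing, so the count of the whole gene does not check the genotype. RNA of whole tissue cannot tell fewer cells of a type from less RNA per cell, and this holds for every endothelial gene below.

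Levels of different genes were compared per kilobase of the gene length in the deposited table, over all 12 mice. Plvap, which forms the diaphragms of fenestrae and caveolae, stood highest at 49.4 CPM per kilobase, followed by Vegfa at 22.6 and by Emcn, an endothelial sialomucin, at 9.69. Tek (6.13), Pecam1 (5.89), Cdh5 (5.50), Ehd3 (4.92), Flt1 (3.78) and Kdr (3.60) lay close together on this scale of CPM per kilobase. Nos3 was lowest at 0.809 CPM per kilobase, with 59 to 156 counts per mouse. Neighbours in this order overlapped in their ranges over the mice, except that Nos3 lay below the range of Kdr in every mouse.

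**Figure D1:**
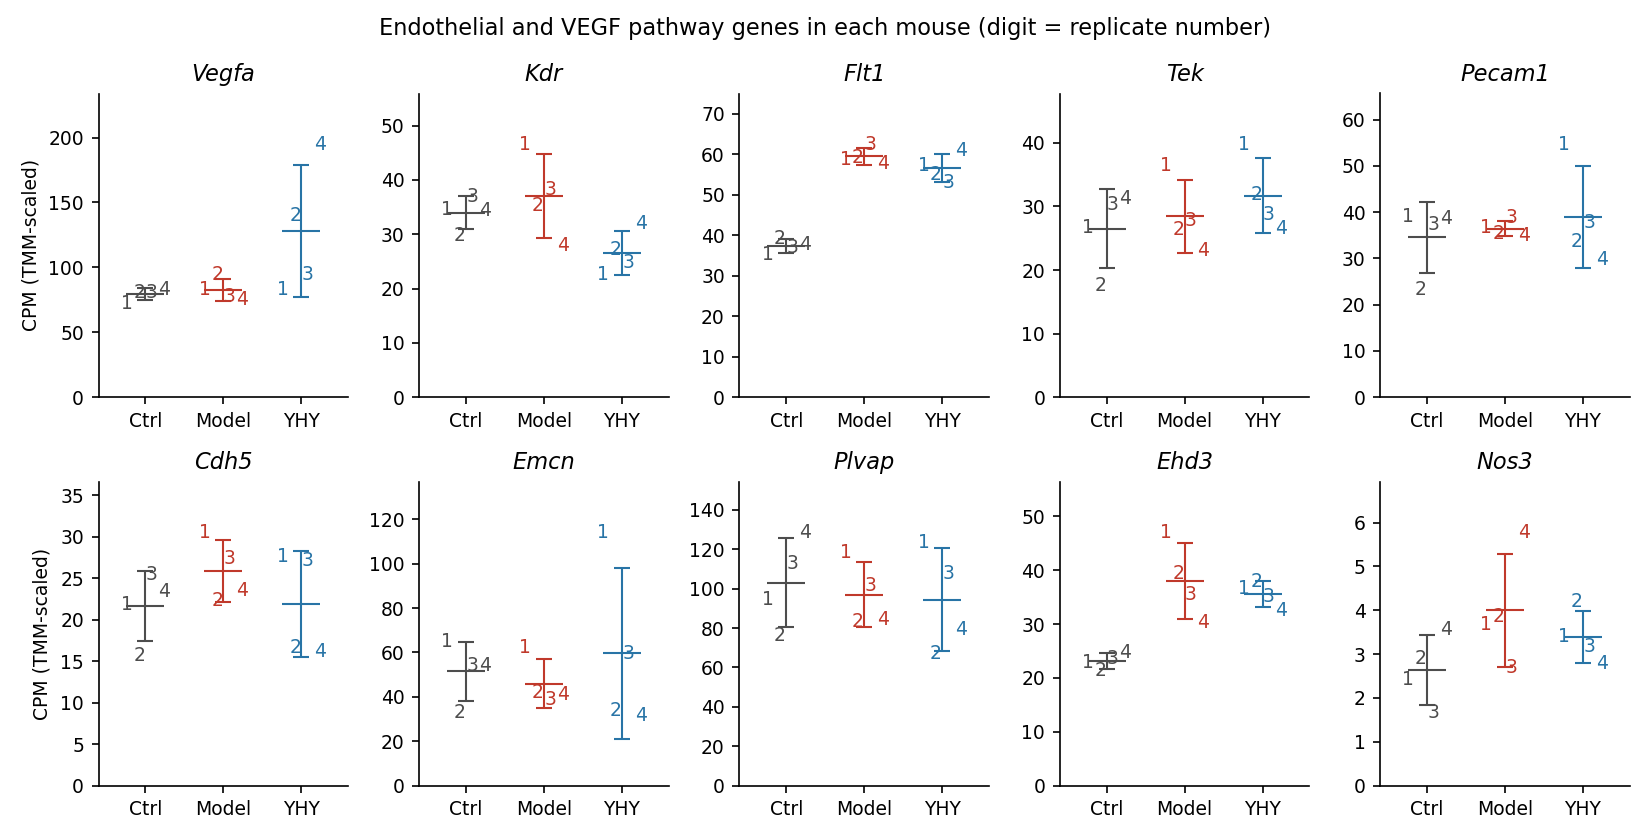
Level of each of the 10 genes (y axis, TMM-scaled CPM, starting at 0) in each mouse of the Ctrl, Model and YHY groups (x axis), each digit being a mouse's replicate number and the bars the group mean and SD. Flt1 and Ehd3 are higher in every Model and YHY mouse than in every Ctrl mouse, and the other 8 genes overlap between groups.

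The comparison of Model with Ctrl asks what accompanies diabetes in db/db kidneys. Flt1 and Ehd3 rose in Model and the other 8 genes did not pass the test. By edgeR's test, 2 of the 10 genes were called upward, where 19.6% of all genes tested were, and 0 of the 10 were called downward, where 18.5% of all genes were. In either direction this made 2 of 10, against 38.0% of all genes, so the share of rises among the 10 was close to that among all genes. No fall appeared among the 10 at an unadjusted p under 0.05 either (0 of 10, against 22.4% of all genes) or by DESeq2 (0 of 10, against 20.2%). DESeq2 called 2 of the 10 in either direction (41.6% of the genes it tested), and the thresholds stated by the study, read as a fold over 1.2 with an unadjusted p under 0.05 and applied here to edgeR's values of all 12 mice, also took 2 of 10 (46.9% of all genes). Without any test, the Model mice all lay above the Ctrl mice for 2 of the 10 genes (19.9% of all genes) and all below for 0 of 10 (20.3%). The median log2 fold change of the 10 genes was 0.11, beside 0.04 for all genes, of which 3412 rose and 3219 fell.

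Flt1, the tight-binding VEGF receptor (ENSMUSG00000029648, chr5:147498414-147662821, minus strand, GRCm39), had 35.2, 39.2, 36.9 and 37.8 CPM in Ctrl 1 to 4. It had 58.6, 59.2, 62.5 and 57.7 CPM in Model 1 to 4. Every Model mouse was far above every Ctrl mouse, and the mice of each group lay close together. The log2 fold change was 0.67 (standard error 0.11, 95% interval 0.43 to 0.92, adjusted p = 3.1e-04 by edgeR). Counts of the whole gene do not separate the membrane-bound from the soluble form of Flt1.

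Ehd3 encodes a protein of endocytic recycling that marks glomerular endothelium in the kidney (ENSMUSG00000024065, chr17:74111129-74139089, plus strand, GRCm39). It had 22.8, 21.4, 23.5 and 24.8 CPM in Ctrl 1 to 4, and 47.0, 39.4, 35.5 and 30.3 CPM in Model 1 to 4. The Ctrl mice were tightly grouped, the Model mice were spread more widely with Model 1 highest, and the groups did not overlap. Ehd3 had a log2 fold change of 0.72 (standard error 0.14, 95% interval 0.42 to 1.02, adjusted p = 0.00102, edgeR's quasi-likelihood test).

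**Figure D2:**
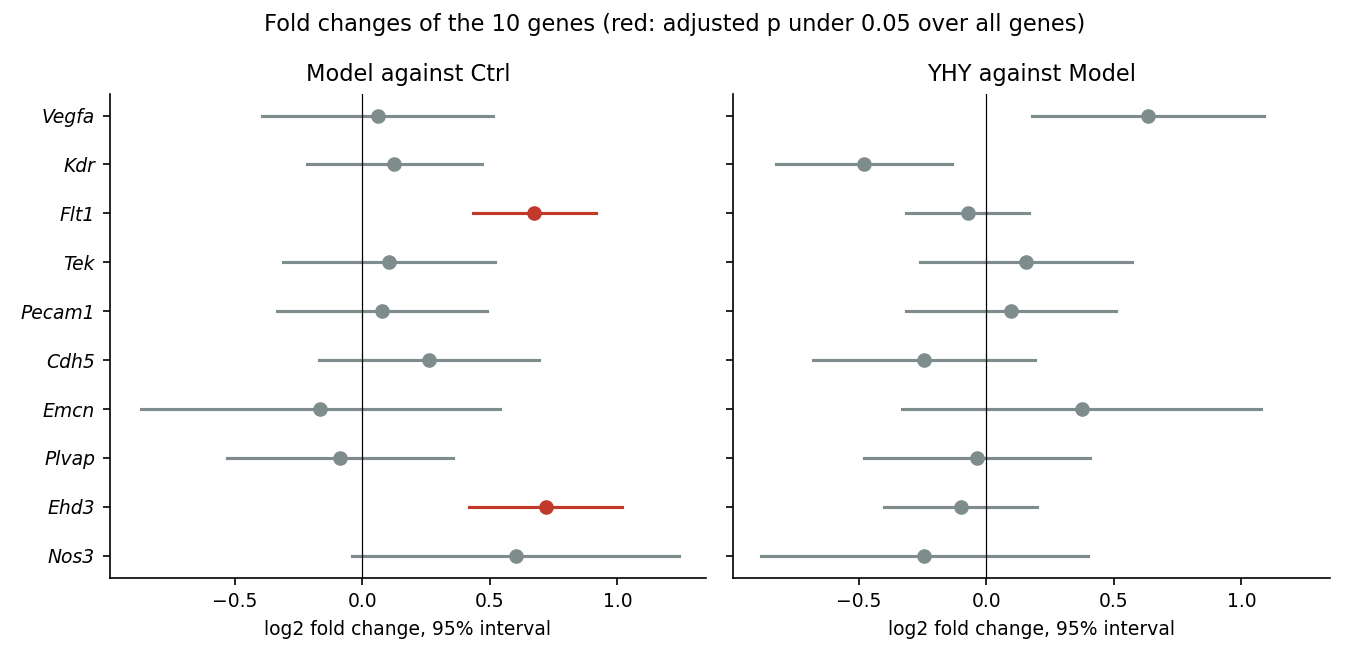
Log2 fold change (x axis) of each of the 10 genes (y axis) between Model and Ctrl and between YHY and Model, as a point with its 95% interval, red where the adjusted p was under 0.05. Flt1 (0.67) and Ehd3 (0.72) stand out in Model against Ctrl, while Vegfa (0.63) and Kdr (-0.48) lie farthest from 0 in YHY against Model without passing the adjusted test.

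Both calls held without any single mouse in turn, with log2 fold changes of 0.60 to 0.70 for Flt1 and 0.54 to 0.81 for Ehd3, but they depended on how libraries were scaled. With scaling by library size alone, in which the mitochondrial counts weigh fully, Flt1 was at 0.24 (adjusted p = 0.271) and Ehd3 at 0.29 (adjusted p = 0.269) on the log2 scale by edgeR. Scaled to the summed counts of 20 other endothelial genes, Flt1 was at 0.12 (adjusted p = 0.555) and Ehd3 at 0.16 (adjusted p = 0.406) by edgeR. The geometric mean of those 20 genes, a scaling added after the data had been seen, gave 0.38 for Flt1 (adjusted p = 0.0750) and 0.42 for Ehd3 (adjusted p = 0.0458) by edgeR. Over all alternatives the adjusted p ran from 3.11e-09 to 0.555 for Flt1 and from 2.54e-05 to 0.406 for Ehd3. These scalings moved all genes together: the median log2 fold change of all genes was 0.04 with TMM, 0.14 with upper quartiles, -0.39 with library size alone and 0.36 with library size without mitochondrial transcripts. It was -0.52 with the summed endothelial genes and -0.25 with their geometric mean. Among genes called, 51.5% rose with TMM, 60.6% with upper quartiles, 21.4% with library size alone and 77.5% without mitochondrial transcripts, against 15.0% and 27.3% with the summed and the geometric endothelial scaling. A scaling shifts all genes by about the same amount, so the distance of a gene to the median of all genes (0.64 for Flt1 and 0.68 for Ehd3 with TMM) is no test of its rise.

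**Figure D3:**
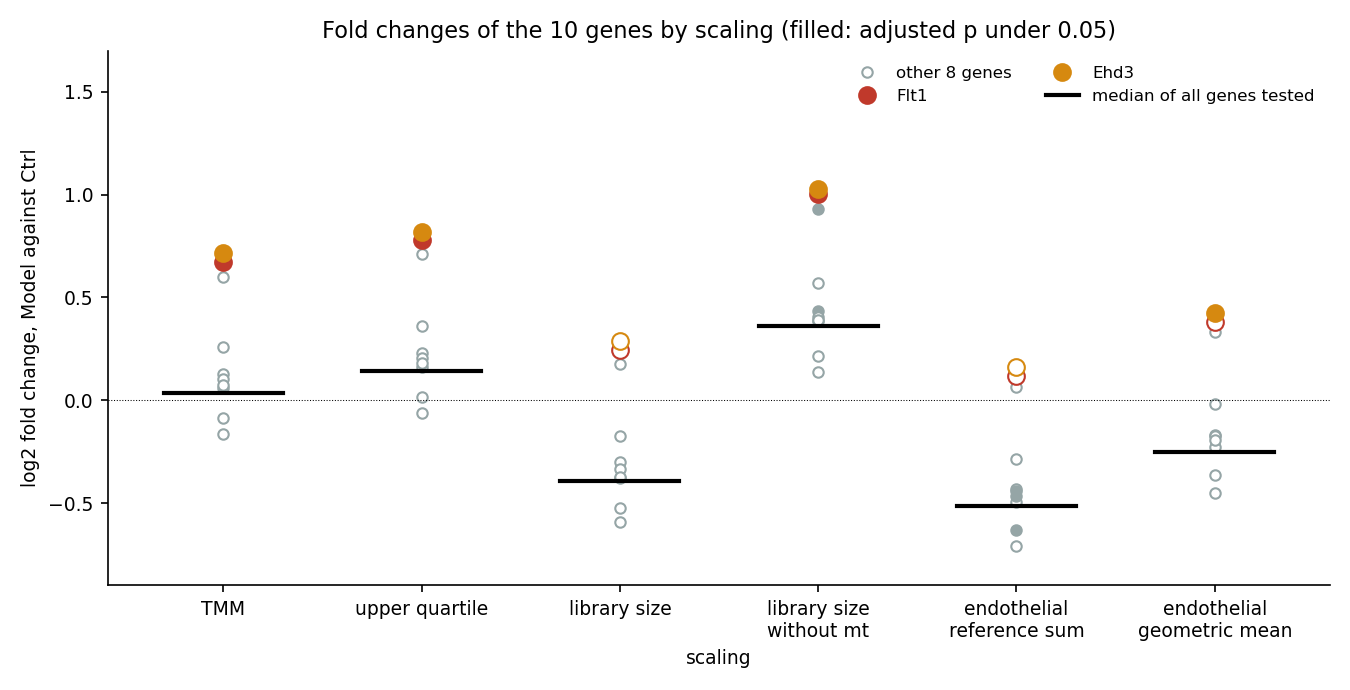
Log2 fold changes of the 10 genes in Model against Ctrl (y axis) under 6 ways to scale the libraries (x axis), filled where the adjusted p was under 0.05, with the median of all genes tested as a black line. The line moves from -0.52 to 0.36, and all genes move with it by construction.

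The start sites of Flt1 and Ehd3, both called with TMM scaling, are shown as sequence. Kdr, the other VEGF receptor, did not pass the test and is placed beside them. That Flt1 and Kdr responded differently was not shown: the change of their ratio in Model had an exact permutation p of 0.0571 (adjusted p = 0.137). RefSeq promoters of 300 bases around the start (GRCm38.p6, an older build than that of the gene coordinates) were matched by symbol for 6 of the 10 genes and not for Pecam1, Cdh5, Plvap and Nos3. The 3 shown are the Flt1 promoter at chr5:147725962-147726261 on the minus strand, the Ehd3 promoter at chr17:73804591-73804890 on the plus strand and the Kdr promoter at chr5:75978406-75978705 on the minus strand. Capitals mark matches, on either strand, to ACGTG (a core of hypoxia-factor sites), GCGTG (a related core), AGGAAG (an ETS-type core) and GGGCGG (a GC box).
Flt1: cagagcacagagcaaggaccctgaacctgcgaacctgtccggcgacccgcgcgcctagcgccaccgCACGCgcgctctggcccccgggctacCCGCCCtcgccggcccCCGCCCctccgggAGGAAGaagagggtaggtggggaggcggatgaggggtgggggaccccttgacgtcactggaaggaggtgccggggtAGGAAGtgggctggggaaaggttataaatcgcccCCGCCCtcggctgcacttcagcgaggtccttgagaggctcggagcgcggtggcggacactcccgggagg
Ehd3: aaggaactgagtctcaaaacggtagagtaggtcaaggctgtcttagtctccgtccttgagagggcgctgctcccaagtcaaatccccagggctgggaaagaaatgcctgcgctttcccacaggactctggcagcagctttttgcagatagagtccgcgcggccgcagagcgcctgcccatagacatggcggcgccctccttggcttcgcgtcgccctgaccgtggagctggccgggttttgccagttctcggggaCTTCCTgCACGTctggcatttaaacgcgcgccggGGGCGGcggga
Kdr: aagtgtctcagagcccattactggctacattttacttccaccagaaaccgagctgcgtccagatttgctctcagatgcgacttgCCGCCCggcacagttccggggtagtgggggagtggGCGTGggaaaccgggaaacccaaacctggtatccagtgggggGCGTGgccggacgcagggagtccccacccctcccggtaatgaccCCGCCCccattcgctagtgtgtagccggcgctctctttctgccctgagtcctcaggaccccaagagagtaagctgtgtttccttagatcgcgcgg
Flt1 held 1 match to GCGTG, 2 to AGGAAG and 3 to GGGCGG. Ehd3 held 1 match to ACGTG, 1 to AGGAAG and 1 to GGGCGG, and Kdr held 2 to GCGTG and 2 to GGGCGG. Of the genes not shown, Emcn, which did not pass the test, held 2 matches to AGGAAG and 1 to GCGTG, and Tek held none of the 4 motifs. Vegfa has 2 promoters in the set, 1 with a match to ACGTG, to GCGTG and to GGGCGG each, and 1 with 2 matches to GGGCGG. Of 32851 promoters of the same length, 19.6% held ACGTG, 32.4% GCGTG, 35.4% AGGAAG and 35.7% GGGCGG. The matches are a description of these letters and not sites shown to be bound.

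The ligand Vegfa (ENSMUSG00000023951, chr17:46327919-46343295, minus strand, GRCm39) had 72.4, 81.0, 80.4 and 83.0 CPM in Ctrl 1 to 4, and 83.3, 94.2, 77.7 and 75.2 CPM in Model 1 to 4. The groups overlapped, with Ctrl 1 lowest and Model 2 highest, and the log2 fold change was 0.06 (adjusted p = 0.848, standard error 0.21). Kdr, the main signalling receptor (ENSMUSG00000062960, chr5:76093487-76139118, minus strand, GRCm39), had 34.6, 29.8, 36.9 and 34.4 CPM in Ctrl 1 to 4, and 46.6, 35.3, 38.3 and 28.0 CPM in Model 1 to 4. Model 1 was the highest and Model 4 the lowest of these 8 mice, so the groups overlapped (log2 fold change 0.13, standard error 0.16, adjusted p = 0.570 by edgeR).

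Among the endothelial genes that did not pass, Tek, the angiopoietin receptor, had 26.8, 17.6, 30.3 and 31.2 CPM in Ctrl 1 to 4, and 36.5, 26.4, 27.8 and 23.0 CPM in Model 1 to 4. Ctrl 2 was the lowest and Model 1 the highest, with the other mice mixed (log2 fold change 0.10, adjusted p = 0.710 by edgeR). Pecam1, a protein of endothelial junctions, had 39.1, 23.2, 37.2 and 38.7 CPM in Ctrl 1 to 4, and 36.6, 35.5, 38.8 and 34.9 CPM in Model 1 to 4. Apart from Ctrl 2, which lay far below, the 7 other mice were at nearly the same level (0.08, adjusted p = 0.787 by edgeR). Cdh5, the cadherin of endothelial junctions, had 21.9, 15.7, 25.5 and 23.4 CPM in Ctrl 1 to 4, and 30.5, 22.3, 27.4 and 23.5 CPM in Model 1 to 4. Ctrl 2 was again the lowest and Model 1 the highest, and the groups overlapped (0.26, adjusted p = 0.333 by edgeR).

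Emcn had 64.7, 33.2, 54.3 and 54.2 CPM in Ctrl 1 to 4, and 62.1, 41.8, 38.9 and 41.3 CPM in Model 1 to 4. Model 1 lay with the higher Ctrl mice and Ctrl 2 below every Model mouse, so the groups were mixed (log2 fold change -0.16, 95% interval -0.87 to 0.54, adjusted p = 0.728 by edgeR). Plvap had 94.6, 76.1, 113 and 128 CPM in Ctrl 1 to 4, and 118, 83.3, 102 and 84.4 CPM in Model 1 to 4. Its mice overlapped almost fully, with Ctrl 4 highest and Ctrl 2 lowest (-0.09, 95% interval -0.53 to 0.35, adjusted p = 0.773 by edgeR). Nos3 had 2.43, 2.90, 1.67 and 3.55 CPM in Ctrl 1 to 4, and 3.67, 3.86, 2.69 and 5.77 CPM in Model 1 to 4. Model 4 was the highest and Model 3 lay among the Ctrl mice. At 94.1 counts on average, its log2 fold change of 0.60 (95% interval -0.04 to 1.24, adjusted p = 0.129) did not pass edgeR's test.

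Under the scalings by library size alone and by endothelial genes Vegfa, Kdr, Tek, Pecam1 and Cdh5 turned negative. Tek (-0.44) and Pecam1 (-0.47) were then called as lower with the summed endothelial scaling (adjusted p = 0.0456 and 0.0304), as was Plvap (-0.63, adjusted p = 0.0106). Without mitochondrial transcripts, Kdr (0.44, adjusted p = 0.0277) and Nos3 (0.93, adjusted p = 0.0313) were called as higher.

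Of 8 listed VEGF and angiopoietin ligands, 1 of which is Vegfa, 2 rose in Model (19.6% of all genes did) and the other 6 did not pass, with a median log2 fold change of 0.26 against 0.04 for all genes. By library size alone 1 rose and 1 fell (median -0.17), with the summed endothelial scaling 1 rose and 3 fell (median -0.30), and without mitochondrial transcripts 4 rose (median 0.59). Here and for the lists below, the shares of all genes called under these other scalings are not given. Counts under them cannot be read against such shares and are no result about a list. Vegfd, a ligand known from lymphatic growth, had 4.63, 5.84, 3.55 and 4.10 CPM in Ctrl 1 to 4, and 12.0, 15.8, 14.3 and 14.2 CPM in Model 1 to 4. The groups lay far apart, and the log2 fold change of 1.64 (adjusted p = 1.02e-04 by edgeR, standard error 0.24) held under each of the 23 alternatives tried, where it ran from 1.07 to 1.98. Angpt4 was called as well, at 0.681 ± 0.199 CPM in Ctrl and 1.63 ± 0.734 CPM in Model (SD, n = 4). The groups overlapped in Model 1 and Ctrl 4, and its log2 fold change of 1.24 (adjusted p = 0.0289) lost its call without Ctrl 1, Ctrl 3, Model 2 or Model 3, with values from 0.98 to 1.15. Its call was also lost with no filter (1.21), with the replicate block (1.18), by library size alone (0.76) and with both endothelial scalings (0.69 and 0.96). Angpt1, which activates TEK, was at 5.84 to 7.84 CPM in the Ctrl and 8.55 to 10.3 CPM in the Model mice, without overlap, and its log2 fold change of 0.46 did not pass (adjusted p = 0.148 by edgeR). It was called under 2 of the 23 alternatives, with the 8 samples compared alone (0.44, adjusted p = 0.0428) and without mitochondrial transcripts (0.79, adjusted p = 0.0178), and ran down to -0.10 with the summed endothelial scaling. Angpt2, which in many settings opposes Angpt1, had 23.6, 7.30, 24.8 and 23.7 CPM in Ctrl 1 to 4 and 13.3, 7.81, 8.86 and 8.72 CPM in Model 1 to 4. Ctrl 2 lay below every Model mouse, and the other Ctrl mice lay above every one. The log2 fold change of -1.04 (adjusted p = 0.0542 by edgeR) did not pass, and without Ctrl 2 it was -1.31 (adjusted p = 0.0109). It passed under 13 of the 23 alternatives, among them without Model 1 (-1.29), YHY 1 (-1.04), YHY 2 (-1.04) or YHY 4 (-1.04) and by DESeq2 (-1.04), the adjusted p running from 0.00185 to 0.178.

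Of 8 listed receptors and co-receptors of these ligands, 3 of which are Flt1, Kdr and Tek, 3 rose (19.6% of all genes did) and the other 5 did not pass, with a median log2 fold change of 0.23. By library size alone 1 rose (median -0.22), with the summed endothelial scaling 2 fell (median -0.31), and without mitochondrial transcripts 4 rose (median 0.54). Besides Flt1, these were the neuropilins, co-receptors that present VEGF to KDR. Nrp1 had 44.1, 56.8, 36.3 and 46.6 CPM in Ctrl 1 to 4, and 68.1, 118, 93.8 and 95.5 CPM in Model 1 to 4. Every Model mouse was above every Ctrl mouse, with Model 2 highest (log2 fold change 1.03, standard error 0.21, adjusted p = 0.00116 by edgeR). This call was lost with the summed endothelial scaling (0.47, adjusted p = 0.111) and held under the 22 other alternatives. Nrp2 was at 14.8 ± 1.14 CPM in Ctrl and 24.6 ± 5.66 CPM in Model (SD, n = 4), without overlap, a rise of 0.73 in log2 (adjusted p = 0.0221 by edgeR, standard error 0.23). Its call was lost without Ctrl 1, Ctrl 3, Ctrl 4, Model 2, Model 3 or Model 4, with log2 fold changes from 0.62 to 0.71 and adjusted p from 0.0510 to 0.0835. It was also lost by library size alone (0.27) and with the endothelial scalings (0.18 and 0.45). Flt4 (0.29), Tie1 (0.18) and Ptprb (0.10), the phosphatase that acts on TEK, had adjusted p from 0.353 to 0.703.

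**Figure D4:**
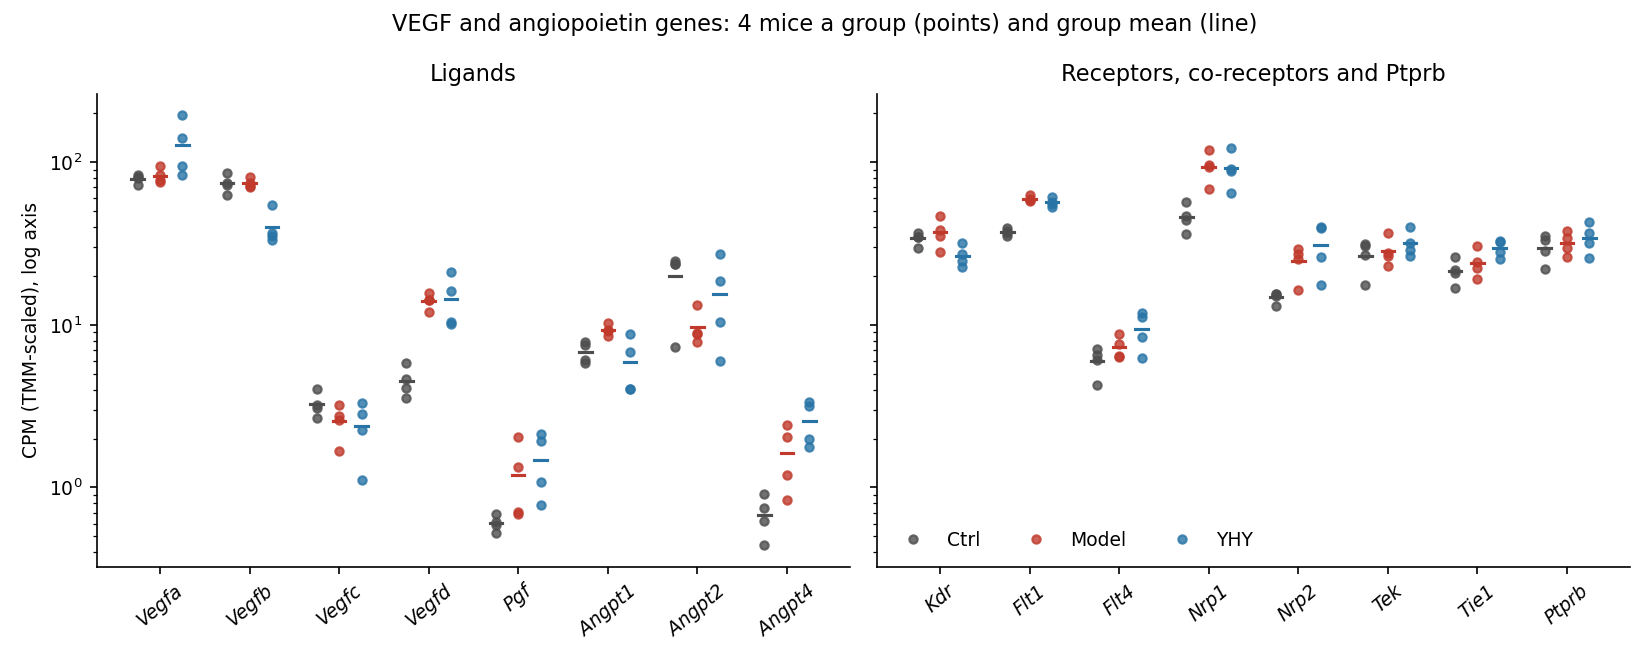
Level of each VEGF and angiopoietin ligand and receptor gene (x axis) in TMM-scaled CPM on a log axis (y axis), with 1 point per mouse and the group mean as a line. Vegfd, Angpt1, Flt1, Nrp1 and Nrp2 are higher in every Model than in every Ctrl mouse, and Vegfb is lower in every YHY than in every Model mouse.

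The comparison of YHY with Model asks what the extract changed in diabetic mice. It shares the Model mice with the comparison above, so values are set side by side and not correlated. Vegfa was at a higher and Kdr at a lower mean level in YHY, but neither passed the adjusted test. By edgeR's test 0 of the 10 genes were called upward, where 5.63% of all genes were, and 0 of 10 downward, where 7.62% were, together 0 of 10 against 13.3%. At an unadjusted p under 0.05 there were 2 of 10, Vegfa up and Kdr down (28.6% of all genes), and the study's thresholds, applied to edgeR's values, took the same 2 (28.6%). DESeq2 called 2 of 10, again Vegfa and Kdr (18.3% of the genes it tested). For 0 of the 10 genes did the YHY mice all lie above the Model mice (6.83% of all genes), and for 0 of 10 all below (9.28%). The median log2 fold change of the 10 genes was -0.05, beside 0.02 for all genes, of which 982 rose and 1329 fell (42.5% up). That share was 64.5% without mitochondrial transcripts (median of all genes 0.16), 64.5% with the summed endothelial genes (0.12) and 22.8% with their geometric mean (-0.07).

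Vegfa had 83.0, 140.1, 94.7 and 195 CPM in YHY 1 to 4, beside 75.2 to 94.2 CPM in the Model mice. YHY 2 and YHY 4 stood well above every other mouse, YHY 3 just above the highest Model mouse and YHY 1 within the Model range. The log2 fold change was 0.63 (standard error 0.21, 95% interval 0.18 to 1.09, unadjusted p = 0.00926, adjusted p = 0.0618 by edgeR's quasi-likelihood test). It passed by DESeq2 (0.64, adjusted p = 0.0268), with upper quartiles (0.64), library size without mitochondrial transcripts (0.74), no filter (0.62) or at least 10 counts in every mouse (0.65). It also passed without YHY 1 (0.79) or YHY 3 (0.75). Without YHY 4, the mouse with the highest level, it was 0.36 (adjusted p = 0.178), and with 9 mice 0.37 (adjusted p = 0.199), the adjusted p running from 0.0175 to 0.199 over all alternatives.

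Kdr had 22.5, 27.1, 24.8 and 31.9 CPM in YHY 1 to 4, beside 28.0 to 46.6 CPM in the Model mice. YHY 1, YHY 2 and YHY 3 lay below every Model mouse, and YHY 4 lay above Model 4. The log2 fold change was -0.48 (standard error 0.16, 95% interval -0.82 to -0.13, unadjusted p = 0.00946, adjusted p = 0.0626 by edgeR's quasi-likelihood test). It passed by DESeq2 (-0.48, adjusted p = 0.0394), without Model 4 (-0.60, adjusted p = 0.0321) and without YHY 4 (-0.58, adjusted p = 0.0301), over a range of 0.0301 to 0.239.

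The 2 genes that were higher in Model stayed near their Model levels in YHY. Flt1 had 57.1, 55.1, 53.1 and 61.0 CPM in YHY 1 to 4, and Ehd3 had 36.7, 38.0, 35.0 and 32.4 CPM. Both genes overlapped between YHY and Model, with log2 fold changes of -0.07 (95% interval -0.31 to 0.17, adjusted p = 0.730) for Flt1 and -0.10 (95% interval -0.40 to 0.20, adjusted p = 0.699) for Ehd3 by edgeR. Emcn had 114, 33.7, 59.4 and 31.4 CPM in YHY 1 to 4, a spread from YHY 1, the highest of all 12 mice, to YHY 4, the lowest. Its log2 fold change of 0.37 (standard error 0.33, 95% interval -0.33 to 1.08) did not pass and turned to -0.15 without YHY 1.

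Tek had 39.8, 31.9, 28.7 and 26.5 CPM in YHY 1 to 4, which overlapped with Model (log2 fold change 0.16, 95% interval -0.26 to 0.57). Pecam1 had 54.7, 33.7, 37.8 and 29.8 CPM in YHY 1 to 4, with YHY 1 above every Model mouse and YHY 2 and YHY 4 below every one (0.10, 95% interval -0.31 to 0.51). Cdh5 had 27.6, 16.6, 27.1 and 16.1 CPM in YHY 1 to 4. YHY 2 and YHY 4 lay below every Model mouse and the other 2 within the Model range (-0.24, 95% interval -0.68 to 0.19). Plvap had 124, 66.9, 108 and 79.5 CPM in YHY 1 to 4. The same 2 mice, YHY 2 and YHY 4, were below every Model mouse (-0.04, 95% interval -0.48 to 0.41). Nos3 had 3.40, 4.20, 3.16 and 2.79 CPM in YHY 1 to 4, all within the Model range (-0.24, 95% interval -0.88 to 0.40). The adjusted p of these 5 genes ran from 0.470 to 0.939 by edgeR.

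Among the ligands, 1 of 8 was called between YHY and Model (13.3% of all genes were) and the other 7 did not pass, with a median log2 fold change of 0.18. Vegfb, a ligand of FLT1 linked to fatty acid uptake, had 70.1, 71.2, 74.1 and 80.9 CPM in Model 1 to 4, and 36.9, 33.0049, 54.9 and 35.1 CPM in YHY 1 to 4. Every YHY mouse was below every Model mouse and also below the 62.9 to 86.4 CPM of the Ctrl mice. Vegfb thus fell by 0.89 in log2 (adjusted p = 0.00373 by edgeR, standard error 0.17), and it passed under each of the 23 alternatives, from -1.08 to -0.74. Between Model and Ctrl, Vegfb did not pass with TMM (log2 fold change 0.00, adjusted p = 0.995, standard error 0.16), and with the summed endothelial scaling it was called as lower (-0.55, adjusted p = 0.0217 by edgeR). Angpt1 was at -0.67 (adjusted p = 0.0841), and at -0.91 without YHY 2 (adjusted p = 0.0234 by edgeR). Angpt2 had 27.3, 5.97, 18.5 and 10.4 CPM in YHY 1 to 4, a log2 fold change of 0.69 (adjusted p = 0.283). Of the 8 receptors and co-receptors, 8 did not pass edgeR's test, with a median of 0.13, and at an unadjusted p under 0.05 Kdr alone was past the threshold, as it was by DESeq2.

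YHY was also set against Ctrl, a comparison that shares its mice with both others. Flt1, Ehd3 and Vegfa were higher in YHY: 3 of the 10 genes were called upward (26.1% of all genes), 0 of 10 downward (24.2%) and 3 of 10 in either direction (50.3%). At an unadjusted p under 0.05, 1 of 10 was lower, Kdr (26.6% of all genes), and by DESeq2 0 of 10 were (25.2%). The log2 fold change was 0.60 for Flt1 (adjusted p = 4.04e-04), 0.62 for Ehd3 (adjusted p = 0.00187) and 0.69 for Vegfa (adjusted p = 0.0130) by edgeR, and it was -0.35 for Kdr (adjusted p = 0.0810). All YHY mice lay above all Ctrl mice for 2 of the 10 genes, Flt1 and Ehd3 (21.9% of all genes), and all below for 0 of 10 (22.7%). Vegfa lost its call without Ctrl 1 (0.58, adjusted p = 0.0524), without YHY 4 (0.42, adjusted p = 0.0557) and with 9 mice (0.38, adjusted p = 0.0940). Kdr gained a call as lower without Model 1 (-0.41, adjusted p = 0.0227) or YHY 4 (-0.46, adjusted p = 0.0331), with the 8 mice compared (-0.39) and with 9 mice (-0.55). With library size alone, 1 of the 10 was called, Kdr as lower (-0.80), while Flt1 was at 0.18, Ehd3 at 0.18 and Vegfa at 0.22. The summed endothelial scaling called Kdr (-0.79), Plvap (-0.59) and Cdh5 (-0.46) as lower, with Flt1 at 0.14, Ehd3 at 0.16 and Vegfa at 0.28. Their geometric mean called Kdr (-0.71) and Plvap (-0.51) as lower, with Flt1 at 0.22, Ehd3 at 0.25 and Vegfa at 0.36. Without mitochondrial transcripts 6 genes were called, all as higher. The shares of all genes called under these scalings are not given, so these counts cannot be read against them.

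Ratios within a mouse do not depend on how its library is scaled, apart from the 0.5 CPM added to each level. Differences in 4 ratios were tested 8 times by exact permutation of the mice (for 4 against 4 no p below 0.0286 can arise), and the smallest adjusted p was 0.114. An unadjusted p under 0.05 came out 2 times, both at the lowest p that can arise. Their adjusted p is therefore no sign that these ratios were alike between groups. The log2 ratio of Ehd3 to Plvap, genes that differ between glomerular and other fenestrated endothelium, was -2.11 ± 0.241 in Ctrl and -1.34 ± 0.197 in Model (SD, n = 4). Each Model mouse was above each Ctrl mouse in this ratio (difference 0.76, exact permutation p = 0.0286, adjusted p = 0.114). The log2 ratio of Vegfa to the summed podocyte markers was -1.89 ± 0.388 in Model and -0.78 ± 0.228 in YHY (SD, n = 4), without overlap (difference 1.11, exact permutation p = 0.0286, adjusted p = 0.114). Vegfa is also made by tubular cells, whose marker values are given with the other cell types. For Flt1 to Kdr the log2 ratios averaged 0.14 ± 0.179, 0.70 ± 0.289 and 1.09 ± 0.172 in the order Ctrl, Model, YHY (SD, n = 4). Its differences of 0.56 and 0.39 had exact permutation p of 0.0571 and 0.0857 (adjusted p = 0.137 for both). For Angpt2 to Angpt1 they averaged 1.35 ± 0.931, 0.02 ± 0.332 and 1.19 ± 1.18 in the same order (SD, n = 4). Its differences of -1.32 and 1.16 had exact permutation p of 0.0857 and 0.143.

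The genes also varied among mice of the same group, which the deviation of each mouse's log2 CPM from its group mean shows. In Ctrl 2, Emcn (-0.60), Tek (-0.55) and Pecam1 (-0.54) were low, while Flt1 (0.07) and Vegfa (0.03) were near the group mean. In YHY 1, Emcn (1.14), Pecam1 (0.53), Plvap (0.43) and Cdh5 (0.38) were high and Vegfa (-0.54) was low, and in YHY 4 Emcn (-0.72) was low and Vegfa (0.69) high. As a description over these 12 deviations, which share libraries and scaling, Pearson r was 0.93 for Cdh5 with Plvap, 0.87 for Pecam1 with Emcn and 0.86 for Cdh5 with Emcn. It was -0.77 for Vegfa with Emcn and -0.72 for Vegfa with Cdh5 (n = 12). Flt1 stayed within -0.09 and 0.11 of its group means in every mouse, and its r with the 9 other genes lay between -0.42 and 0.50. Proximal tubule markers moved beside Vegfa in the YHY mice: their mean deviations were -0.75, 0.22, -0.35 and 0.88 in YHY 1 to 4, beside -0.54, 0.21, -0.35 and 0.69 for Vegfa. Podocyte markers had mean deviations of -0.31, 0.17, -0.30 and 0.44 in the same mice. In Ctrl the proximal tubule markers did not follow Vegfa (0.36 in Ctrl 2 and -0.50 in Ctrl 4, beside 0.03 and 0.07), and the part of either cell type in the Vegfa level was not tested. The 5 genes whose deviations were most like the mean of the 10 genes, among 12928 candidates, were Eif2ak3 (r = 0.95), Prrg1 (0.95), Susd1 (0.94), Fundc1 (0.92) and Rassf10 (0.92), each over 12 mice.

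**Figure D5:**
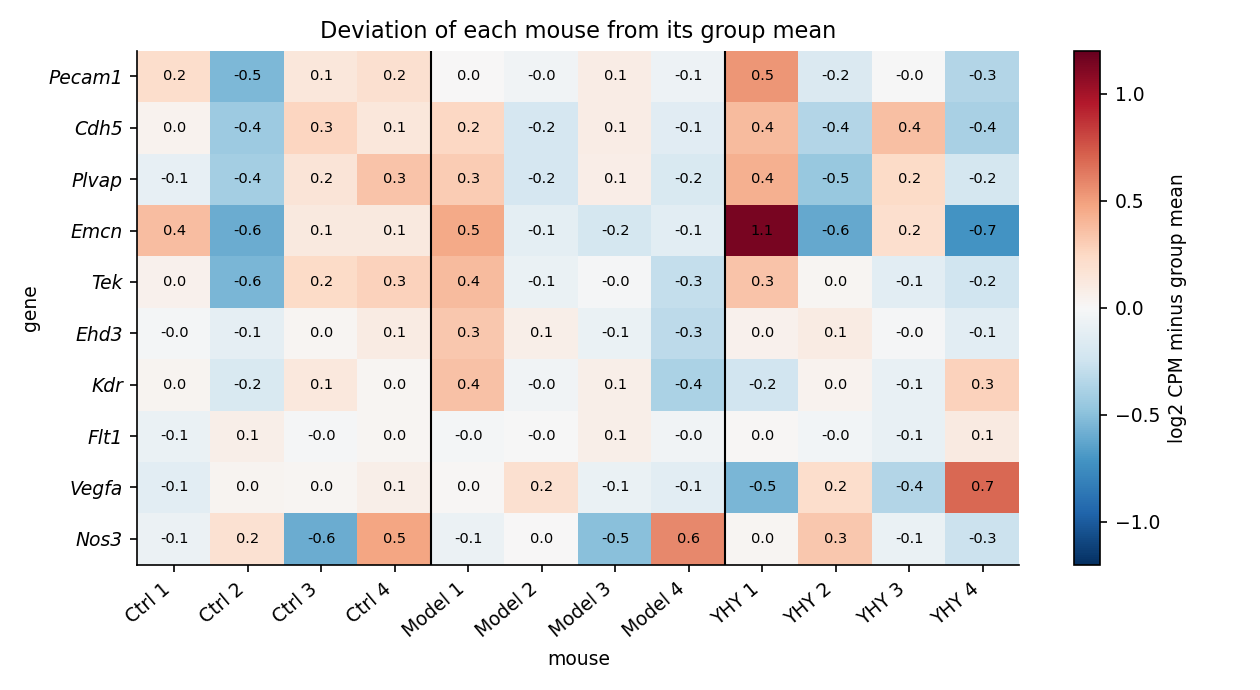
Deviation of each gene (y axis) in each mouse (x axis) from its group mean, in log2 CPM, from low (blue) to high (red). Pecam1, Cdh5, Plvap, Emcn and Tek are low together in Ctrl 2, and Emcn reaches 1.14 in YHY 1 while Vegfa is at -0.54 there.

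Other endothelial genes were read as lists. Of 20 endothelial reference genes outside the 10, 5 rose in Model against Ctrl and the other 15 did not pass, with a median log2 fold change of 0.25. For this and the lists below, the shares of all genes with TMM were 19.6% up and 18.5% down in Model against Ctrl, and 5.63% up and 7.62% down in YHY against Model. Eng, a co-receptor of transforming growth factor beta in endothelium, had 120, 133, 118 and 116 CPM in Ctrl 1 to 4, 246, 264, 275 and 238 CPM in Model 1 to 4, and 196, 184, 173 and 171 CPM in YHY 1 to 4. The 3 groups did not overlap, with YHY between Ctrl and Model. Eng rose in Model by 1.07 on the log2 scale (standard error 0.13, adjusted p = 2.70e-05 by edgeR) and was at -0.50 in YHY against Model (standard error 0.13, adjusted p = 0.0205). The second of these calls was lost without Model 3 (-0.47, adjusted p = 0.0730) and under 6 other alternatives, 4 of them scalings, over -0.59 to -0.35, while the first held under each of the 23 alternatives, over 0.51 to 1.40. Eng made up 37.9% of the summed level of the list, which averaged 383 ± 29.9, 561 ± 26.5 and 529 ± 59.8 CPM in the order Ctrl, Model, YHY (SD, n = 4). Egfl7 (0.70), Robo4 (0.96), Cldn5 (0.60) and Rasip1 (0.86) also rose in Model. By library size alone and with the summed endothelial scaling, Egfl7 (0.13 at the lowest), Robo4 (0.41), Rasip1 (0.31) and Cldn5 lost their calls. Egfl7, Rasip1 and Cldn5 also lost them with the geometric mean, and Rasip1 without Ctrl 1. All of these genes take part in the endothelial scalings. In YHY against Model, 2 of the 20 genes were called, Eng downward and Esam, a junction protein, upward (0.81, adjusted p = 0.0417), and the median was 0.06. Esam kept its call in 5 of the 12 fits without 1 mouse, over 0.62 to 0.96. Of the 20 genes, 1 rose and 2 fell in Model by library size alone (median -0.18), and 8 rose without mitochondrial transcripts (median 0.57). The endothelial scalings are built from these same 20 genes, which centres the list by construction, so its counts and medians under them are no test of it.

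Of 4 glomerular endothelial genes outside the 10, 2 rose in Model, Nostrin (log2 fold change 1.15) and Plat (0.76), with a median of 0.96 for the list. In YHY against Model 0 of these 4 were called (median -0.25). Plat lost its call without Ctrl 3 or Model 1 (0.59 to 0.88 over the leave-outs), with 9 mice, by library size alone and with both endothelial scalings (0.21 at the lowest), and Nostrin lost its call with the summed endothelial scaling (0.61). Of 9 arterial genes 2 rose in Model (median 0.26), Sox17 (0.52) and Gja4 (0.60), and 1 rose in YHY against Model (median 0.10), again Sox17 (0.70, adjusted p = 0.0115 by edgeR). In Model against Ctrl, Sox17 kept its call in 8 and Gja4 in 7 of the 12 fits without 1 mouse. Both lost it by library size alone and with the endothelial scalings (-0.03 and 0.07 at the lowest), where 3, 3 and 2 of the 9 arterial genes were called as lower and none as higher (medians -0.17, -0.29 and -0.03). Between YHY and Model, Sox17 lost its call by library size alone. Of 6 lymphatic genes 2 rose in Model (median 0.54), Reln (1.03) and Pdpn (0.55), which kept their calls in 4 and 3 of the 12 such fits and lost them in the same 3 scalings (list medians 0.13, -0.02 and 0.25). In YHY against Model 0 of the 6 lymphatic genes were called (median 0.57). Of 8 tested genes of endothelial activation and flow, 2 rose and 3 fell in Model (median -0.03): Klf2, a factor induced by flow (0.92), and Nfkbia (0.82) rose, and the adhesion molecule Icam1 (-0.57), Thbd (-0.81) and Cav1 (-0.83) were lower. Klf2 (0.36 at the lowest) and Nfkbia (0.27) lost their calls by library size alone and with the summed endothelial scaling, Nfkbia also with the geometric mean. Without mitochondrial transcripts 2 of the 8 genes rose and 0 fell, so Icam1 (-0.25), Thbd and Cav1 all lost their calls. The median of the 8 genes was -0.59 with the summed endothelial scaling and 0.30 without mitochondrial transcripts. In YHY against Model, 1 of these 8 rose, Edn1, the vasoconstrictor endothelin (1.08, adjusted p = 0.0415), with a median of 0.20, and it kept its call in 2 of the 12 fits without 1 mouse.

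Downstream of the receptors, 7 of 39 tested genes of VEGF receptor signalling rose and 9 fell in Model against Ctrl (median -0.17), and 4 rose and 5 fell in YHY against Model (median -0.10). Among all genes, 19.6% rose and 18.5% fell with TMM in the first comparison, and 5.63% and 7.62% in the second. The counts of the 39 genes in Model depended on scaling: 1 rose and 17 fell by library size alone and likewise with the geometric mean, 1 rose and 25 fell with the summed endothelial genes (median -0.74), and 11 rose and 2 fell without mitochondrial transcripts (median 0.15). The median of all genes moved as well, to -0.52 with the summed endothelial genes and 0.36 without mitochondrial transcripts. These counts are therefore no result about the 39 genes. In YHY against Model, 1 rose and 3 fell by library size alone, and 3 rose and 3 fell with the summed endothelial genes. With their geometric mean 2 rose and 5 fell, and without mitochondrial transcripts 5 rose and 3 fell. Sphk1, a sphingosine kinase, rose in Model (1.73, adjusted p = 2.90e-04), while the small GTPase Rac1 (-1.18, adjusted p = 1.37e-05) and the adaptor Nck1 (-1.23, adjusted p = 7.74e-04) were lower. Plcg1, the phospholipase that KDR recruits, was called in YHY against Model (1.06, adjusted p = 4.46e-04), and Hras (-0.93, adjusted p = 4.79e-04) and Map2k2 (-0.96, adjusted p = 8.84e-04) were lower there.

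Of 19 genes of nitric oxide synthase and its regulators, 1 of which is Nos3, 5 rose and 8 fell in Model (median -0.56; with the summed endothelial scaling 1 and 10, median -1.14, and without mitochondrial transcripts 6 and 4, median -0.23), and 1 rose and 3 fell in YHY against Model (median -0.06). The chaperone genes Hsp90ab1 (-1.80, adjusted p = 4.88e-06) and Hsp90aa1 (-1.60, adjusted p = 1.43e-05) were lower in Model. Ddah1, which breaks down an inhibitor of the synthase, fell in both comparisons, by 1.35 and then by 1.24 on the log2 scale. Hsp90ab1 alone made up 32.9% of the summed level of the list, which averaged 2219 ± 57.3, 1002 ± 171 and 899 ± 99.9 CPM in the order Ctrl, Model, YHY (SD, n = 4), while the median log2 fold change of the list in YHY against Ctrl was 0.28. Of 18 tested hypoxia factors and hypoxia-responsive genes, which relate to the control of Vegfa, 2 rose and 6 fell in Model (median -0.23), and 1 rose and 3 fell in YHY against Model (median -0.33). In Model, 11 fell by library size alone and 13 with the summed endothelial scaling, with none rising, and 4 rose and 4 fell without mitochondrial transcripts (median 0.09). Ldha, the lactate dehydrogenase gene, was lower in both comparisons (-1.29 and -0.92). Car9, a carbonic anhydrase, rose in Model (1.11), a call lost with library size alone and with the summed endothelial scaling (0.58 at the lowest), and was lower in YHY against Model (-1.19, adjusted p = 0.0191 by edgeR). The latter ran from -1.35 to -0.87 without 1 mouse and was not called without Model 4 (adjusted p = 0.0665).

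Markers of other kidney cells changed as well, and their part in the results above was not tested. Of 12 podocyte markers, 6 rose and 1 fell in Model (median 0.63; with the summed endothelial scaling 3 and 3, median 0.07), and 2 fell in YHY against Model (median -0.42). Nphs1, the slit-diaphragm protein nephrin, rose by 1.86 on the log2 scale in Model, and Clic5, the most abundant podocyte gene of the list, fell by 0.98 and then by 1.00. Summed podocyte levels averaged 279 ± 34.8, 315 ± 89.3 and 213 ± 53.2 CPM in the same order (SD, n = 4). Of 10 proximal tubule markers, 1 rose and 4 fell in Model (median -0.24; without mitochondrial transcripts 1 and 3, median 0.10), and 2 fell in YHY against Model (median -0.51), their sum averaging 8490 ± 1396, 6324 ± 632 and 5061 ± 1604 CPM in that order. Of 5 thick ascending limb markers, 4 fell in Model (median -1.12, and without mitochondrial transcripts 2, median -0.825). In YHY against Model 0 of these 5 were called (median 0.31). Of 8 distal tubule and collecting duct markers, 1 rose and 2 fell in Model (median 0.05; with the summed endothelial scaling -0.51), and 2 fell in YHY against Model (median -0.28). Of 10 mesangial, pericyte and smooth muscle markers, 4 rose in Model (median 0.29) and 1 rose in YHY against Model (median 0.07). In Model, 1 of these rose and 3 fell by library size alone (median -0.15), 1 rose and 4 fell with the summed endothelial scaling (median -0.25), and 2 rose and 1 fell with the geometric mean. The gene that rose in YHY against Model, Myh11 (0.565), kept its call in 1 of the 12 fits without 1 mouse. It also lost its call by library size alone, with the 8 mice compared and with the geometric mean.

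Of 6 fibroblast markers 1 rose in Model (median 0.08), while 1 fell by library size alone and with the summed endothelial scaling (medians -0.37 and -0.49). In YHY against Model 0 of the 6 were called (median 0.32). Of 9 tested leukocyte markers 1 rose and 2 fell in Model, with a median of -0.08 (-0.62 with the summed endothelial scaling, 0.25 without mitochondrial transcripts). In YHY against Model 0 of the 9 were called (median 0.51). Of 4 tested platelet markers 1 rose in Model (median 0.33, and -0.24 with the summed endothelial scaling), and 0 of the 4 were called in YHY against Model (median 0.84). Of 5 red cell markers 1 rose and 3 fell in Model (median -1.17), and 2 rose in YHY against Model (median 1.11). These 2, Hbb-bs and Alas2, kept that call in 6 and 7 of the 12 fits without 1 mouse. Both lost it with 9 mice, and Hbb-bs also by library size alone. Of 6 adipocyte markers, 4 (Adipoq, Plin1, Cfd and Lep) had too few counts for testing, and the other 2 did not pass, with medians of 0.59 and -0.09. The 4 nuclear-retained RNAs all rose in Model (median 1.78), and 2 of them, Malat1 and Neat1, rose in YHY against Model (median 0.67). With the geometric mean both lost that call (list median 0.57), as did Neat1 without Model 3 or Model 4 and with 9 mice (0.60 at the lowest), and 3 of the 4 rose in Model with the summed endothelial scaling. Together they averaged 336 ± 41.8, 751 ± 216 and 1321 ± 169 CPM in the order Ctrl, Model, YHY (SD, n = 4).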

How the data were processed

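RNA of 12 kidneys was read as the table of raw gene counts that the authors deposited. For how the authors made these counts, the labels name FastQC, Trimmomatic, HISAT2, SAMtools, featureCounts (Subread), DESeq2 and R with builds GRCm39 and mm39, without order or role. They give neither the annotation release nor whether strand was used, and strand-specific libraries are mentioned only as a condition. The 12 per-sample columns of normalized values in the authors' comparison tables, with their group means, fold changes and p-values, and the authors' KEGG enrichment, were not used. In the table for Model against Ctrl these columns are named for Ctrl 1, 3 and 4 and Model 2, 3 and 4 only, so the authors' inputs may differ from the 12 mice used here. In the table for YHY against Model they are named for YHY 1, 2, 3 and 4 and Model 1, with YHY 3 named 2 times. The 9 mice are the first 6 with YHY 1 to 3. They leave out Model 1 and YHY 4, which the second of these tables names. Whether the authors' values come from the 9 mice was not tested here.

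Counts were analysed in R 4.3.3 with data.table version 1.17.8 and edgeR 4.0.16 (filterByExpr, TMM, 1 quasi-likelihood fit of the 3 groups, two-sided tests, Benjamini-Hochberg over 17431 genes, called at adjusted p under 0.05). The procedure was tried on simulated counts with 200 genes changed. No shift of mitochondrial transcripts was built into them, so that trial does not bear on the choice of scaling. Standard errors were taken from the log2 fold change and its F value, and 95% intervals use the same error. DESeq2 1.42.0 (size factors, Wald test) was an alternative. Other alternatives were 5 scalings (1 of them, the geometric mean of the endothelial genes, chosen after seeing the data), no filter, at least 10 counts in every mouse, the 8 mice compared, 9 mice (without Ctrl 2, Model 1 and YHY 4, the set named above), a replicate block, the study's rule, fits without 1 mouse, and for ratios 0.1 CPM added. Binomial intervals of mitochondrial shares cover counting error only (Ctrl 2: 22.6994% to 22.7295%), and 3 counts corresponded to 0.0683 CPM in Ctrl 4 and up to 0.166 CPM in YHY 2.

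The 10 genes and the other lists, 22 in all, were chosen with earlier results of these data known. Named genes were the 10, all ligands and receptors, and, for every other list and comparison, the 3 with the smallest p and the most abundant. Also named were the 5 genes most like the mean deviation of the 10. Any gene beyond this rule (Cldn5, Thbd and Cav1 among them) was chosen after its values were seen. Such genes were not followed singly through the alternatives, only through the counts of their lists under other scalings. The ligand list holds 1 of the 10 genes, the receptor list 3 and the nitric oxide list 1. Of the receptors and co-receptors 3, of the endothelial reference genes 2, of the nitric oxide genes 2 and of the glomerular, lymphatic and activation genes 1 each stand in another list too. In these lists Sh2d2a, Sele, Selp, Epo, Cd3e and Gp1bb had too few counts for testing.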

Additional observations from a re-analysis of the deposited data

Results flagged for a closer look

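In 435 groups of 4 values, 22 had a mouse far from the other 3 by Dixon's criterion (its gap to the nearest of them over the whole range). Chance flags about 1 in 20 groups. Ctrl 2 holds 11 of the 22 values and YHY 2 holds 5. Whether these libraries or mice are the source was not tested.

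Among the 10 genes, Pecam1 was low in Ctrl 2 (23.2 CPM, others 37.2 to 39.1) and Emcn high in Model 1 (62.1 CPM, others 38.9 to 41.8). Ctrl 2 was low in Angpt2 (7.30 CPM), in the log2 ratio of Angpt2 to Angpt1 (-0.0342), in Rac1 (77.5 CPM), Nes (9.52), Cldn10 (135 CPM), Des (9.17) and Fundc1 (18.1), and high in Calb1 (241 CPM). Its total of 29632718 counts (29.6 M) was the lowest of the 4 Ctrl mice and its mitochondrial share 22.7%. YHY 2 was high in Slc12a3 (466 CPM), Des (24.6), Ppbp (3.65), the summed mesangial, pericyte and smooth muscle markers (359 CPM) and the mitochondrial share (64.6%). In other mice, Hsp90aa1 was high in YHY 1 (186 CPM) and Edn1 low in Model 3 (1.28 CPM). Sums stood high for the ligands in Model 2 (205 CPM), arterial genes in Ctrl 3 (229 CPM) and hypoxia-responsive genes in YHY 4 (2030.0 CPM).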

How the results depend on the processing

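Of 480 recalculated fold changes of the 10 genes, 415 kept their sign and their side of the threshold, 43 that were not called changed sign, 15 became called, 5 lost their call and 2 reversed. The 2 reversed with scaling to the summed endothelial genes, in Model against Ctrl: Tek at -0.44 and Pecam1 at -0.47, both then called as lower.

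In Model against Ctrl, 2 of the 10 genes were called in every fit without 1 mouse. The number was 0 with library size alone, 4 without mitochondrial transcripts and 1 with the geometric mean of endothelial genes, a scaling chosen after seeing the data. With the summed endothelial genes it was 3, all called as lower (Tek, Pecam1 and Plvap). The shares of all genes called under these scalings are not given here, so the counts are no result about the 10 genes. All genes called ran from 5292 to 7093 in the fits without 1 mouse.

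In YHY against Model, where 0 were called, the number was 2 with DESeq2 and with the study's rule. It was 1 with upper quartiles, without mitochondrial transcripts, with no filter and with at least 10 counts in every mouse, and 0 to 1 without 1 mouse. The shares of all genes called under the settings of the previous sentence are not given here, so its counts are no result about the 10 genes. All genes called numbered 2311, against 1177 with library size alone, 1401 with the summed and 1344 with the geometric endothelial scaling. The 8 mice compared alone gave 1385, the study's rule 4988, and the fits without 1 mouse 1146 to 2723. In YHY against Ctrl, 3 became 1 with library size alone and 6 without mitochondrial transcripts, and 2 to 4 without 1 mouse. With the summed endothelial genes those called were Kdr, Plvap and Cdh5, and with their geometric mean Kdr and Plvap, all as lower. The shares of all genes called in YHY against Ctrl under these settings are not given.

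The log2 ratio of Vegfa to podocyte markers in Model against Ctrl (-0.09) was 0.0879 with 9 mice and -0.19 to 0.0810 without 1 mouse. That of Ehd3 to Plvap in YHY against Model (-0.02) was -0.20 to 0.11 without 1 mouse. The cause of these shifts was not tested. With the replicate block, 2, 0 and 3 of the 10 genes were called in the 3 comparisons, with 6289 of all genes in the first and 1920.0 in the second. Equal replicate numbers are no sign of pairing: over 12 pairs of mice with the same number, r of the deviations ran from -0.17 to 0.12. Nos3 had 59 to 156 counts a mouse, and whether depth limits its test was not tested.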
